A study of Homo sapiens with 28 samples.

Results

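THP1 is a monocytic leukaemia cell line. Its response to GSK3484862, an inhibitor of the DNA methyltransferase DNMT1, was measured on 4 of the 28 arrays of a study of 7 acute myeloid leukaemia lines. The 4 arrays are those titled THP1: 2 from cells kept for 4 days (96 hours) in 1 µM GSK3484862 and 2 from cells kept as long in the vehicle alone, DMSO at 0.1%. The series describes the arrays of a group as biological duplicates. The other 24 arrays carried the same 2 treatments of GDM1, MOLM13, SKM1, SKNO1, NOMO1 and SHI1 and served as context and, with the THP1 arrays, as the source of the estimate of spread. THP1 stands for 1 donor's leukaemia, with no second dose or time. Each of 11676 genes was represented by the probe set with the highest mean over the 28 arrays.

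DNMT1 copies methylation onto new DNA strands during replication, so that cells dividing without it lose methylation over successive divisions. Methylation of CpG sites around a start site goes with silence of germ-line genes such as the MAGE family, of endogenous retroviruses and of some lineage genes. In other cells, loss of methylation is known to let retroviral RNA be made, which sensors such as MDA5 (the product of IFIH1) detect, and interferon response genes are then switched on through a DNA motif named the interferon-stimulated response element.

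The stretches of DNA just upstream of 3 interferon response genes that rose are shown first, because they carry that motif. Each is the 250 bases before the RefSeq start (GRCh38.p14), written 5′ to 3′ on the gene's strand, with matches to GAAANNGAAA or its reverse complement TTTCNNTTTC in capitals. The motif was searched on both strands and overlapping matches were merged in the print.
IFI44L, chr1:78620198-78620447, plus strand: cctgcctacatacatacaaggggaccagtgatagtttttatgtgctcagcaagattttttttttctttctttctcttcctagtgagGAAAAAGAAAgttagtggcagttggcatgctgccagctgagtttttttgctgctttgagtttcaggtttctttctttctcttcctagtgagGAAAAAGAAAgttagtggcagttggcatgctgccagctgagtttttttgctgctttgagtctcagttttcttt
IFIH1, chr2:162318685-162318934, minus strand: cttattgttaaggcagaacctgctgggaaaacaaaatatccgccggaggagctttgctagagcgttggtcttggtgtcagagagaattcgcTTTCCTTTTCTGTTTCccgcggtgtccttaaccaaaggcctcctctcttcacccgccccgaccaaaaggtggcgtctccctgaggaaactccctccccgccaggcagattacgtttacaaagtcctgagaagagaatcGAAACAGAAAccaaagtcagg
LGALS3BP, chr17:78979924-78980173, minus strand: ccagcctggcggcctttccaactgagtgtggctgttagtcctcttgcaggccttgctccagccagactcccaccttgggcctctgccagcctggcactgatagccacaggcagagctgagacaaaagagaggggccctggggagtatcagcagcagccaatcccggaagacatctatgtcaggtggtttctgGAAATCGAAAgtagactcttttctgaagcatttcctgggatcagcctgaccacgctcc
IFI44L held 2 matches and no CpG at all, IFIH1 held 3 matches, of which 2 overlap, and LGALS3BP held 1. For comparison, 3.51% of the 9563 genes with a listed start held a match in that window.

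The next 3 stretches, from the same source, contrast upstream CpG density, with every CpG in capitals. ZNF595 and S100P rose, and CCNE1 fell.
ZNF595, chr4:53071-53320, plus strand: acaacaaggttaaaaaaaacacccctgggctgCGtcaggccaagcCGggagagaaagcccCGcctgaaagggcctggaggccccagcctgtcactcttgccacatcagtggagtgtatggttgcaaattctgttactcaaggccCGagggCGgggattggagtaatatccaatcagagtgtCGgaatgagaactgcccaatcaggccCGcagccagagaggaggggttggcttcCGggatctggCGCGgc
S100P, chr4:6693628-6693877, plus strand: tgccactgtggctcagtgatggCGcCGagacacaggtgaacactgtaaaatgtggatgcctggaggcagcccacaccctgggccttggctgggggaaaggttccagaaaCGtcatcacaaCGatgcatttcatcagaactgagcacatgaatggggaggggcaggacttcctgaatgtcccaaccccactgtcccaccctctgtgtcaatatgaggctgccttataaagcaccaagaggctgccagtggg
CCNE1, chr19:29811741-29811990, plus strand: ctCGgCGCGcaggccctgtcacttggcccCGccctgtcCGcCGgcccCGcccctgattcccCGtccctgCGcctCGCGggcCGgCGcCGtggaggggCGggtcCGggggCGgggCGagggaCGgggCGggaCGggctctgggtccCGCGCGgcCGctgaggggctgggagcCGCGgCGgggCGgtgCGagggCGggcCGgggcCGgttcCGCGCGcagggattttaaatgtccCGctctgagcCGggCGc
The ratio of CpG found to CpG expected from base composition was 0.48 upstream of ZNF595, 0.21 upstream of S100P and 0.96 upstream of CCNE1. The S100P stretch held 4 CpG sites and the CCNE1 stretch held 39.

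The response was made of many small falls and of fewer but larger rises. Of the 11676 genes, 1599 (13.7%) passed an adjusted p of 0.05 with limma, 630 of them higher (5.4%) and 969 lower (8.3%) with GSK3484862. At least 2-fold changes were found for 194 genes that rose (1.66%) and 79 that fell (0.677%). The median log2 change was 0.67 among the rises and -0.41 among the falls, against -0.02 over all genes. Rises of more than 2 on the log2 scale numbered 50, and falls of that size 4. Rises made up 39.4% of the calls with the deposited values, 46.4% after quantile normalization and 46.6% after median centring, and outnumbered falls without DMSO array 2 (51.4%). The shares of 5.4% and 8.3% are the background for the count of each gene list. For counts of changes above or below 0 the background is the median of -0.02 over all genes, which was 0.00 after median centring.

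The precision came from the duplicates and from pooling. The duplicate arrays correlated at 0.997 over all genes in each THP1 group, and a single array's SD was 0.183 in DMSO and 0.181 in treated cells, within the 0.161 to 0.305 seen over all 14 groups. Leaving out 1 THP1 array lowered the number of calls to between 747 (without DMSO array 1) and 903 (without DMSO array 2), with 849 and 817 without treated array 1 or 2. Fitted on the 4 THP1 arrays alone, which leave 2 residual degrees of freedom, limma called 2 genes, NFE4 and PAX8-AS1, while 3616 had an unadjusted p under 0.05. The other calls therefore rest on a spread shared with the 6 other lines. So does each standard error (SE), which can be smaller than the scatter of the THP1 duplicates. HCP5 had an SE of 0.19 with treated values of 6.64 and 5.67, and BEND7 an SE of 0.26 with 3.65 and 4.75.

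The labelled cell type was checked on 19 measured markers of the 35 listed. LYZ, the lysozyme of monocytes, lay between 13.9 and 14.4 on the log2 scale on the 4 arrays, and CEBPA and SPI1, myeloid transcription factors, lay near 13.8 and 9.6. CSF1R, CD14, CD36 and TYROBP were detected and rose. Of markers of other lineages, CD3D, CD79A, ITGA2B and KRT8 stayed between 3.70 and 5.76, while PAX5, a B-cell transcription factor, stood at 7.05 and 7.28 in DMSO. MEIS1, a partner of HOX proteins that is usually high in leukaemias with the KMT2A rearrangement THP1 carries, lay at the lowest value of the table on all 4 arrays, and PBX3, another such partner, lay near 12.3.

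Transcripts of the inhibitor's target and of its partners moved little. DNMT1, the maintenance methyltransferase, measured 13.31 and 13.25 in DMSO and 13.20 and 13.21 with GSK3484862, a change of -0.08 ± 0.07 (SE, n = 2 against 2; adjusted p = 0.548). UHRF1, which brings DNMT1 to replicated DNA, changed by -0.11 ± 0.08 (adjusted p = 0.43), and DNMT3B, a de novo methyltransferase, by -0.10 ± 0.10 (adjusted p = 0.61). The treated values of all 3 lay below their DMSO values, but the differences did not pass the test. The inhibitor acts on the protein, which these arrays do not measure. Of 19 measured genes of the methylation machinery, 1 rose and 3 fell, with a median change of -0.08, against 5.4% and 8.3% of all genes. Of the 19, 14 had a change below 0 and 5 above.

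The calls in that group were small. CDCA7, a cofactor of the remodeller HELLS, fell from 12.92 and 12.88 to 12.51 and 12.46 (-0.42 ± 0.09, adjusted p = 0.00591) and kept its call whichever THP1 array was left out. UHRF2, a relative of UHRF1, fell by 0.26 (adjusted p = 0.0161), lost without DMSO array 1 (0.0879), DMSO array 2 (0.0708) or treated array 1 (0.173). DNMT3A, the other de novo methyltransferase, fell by 0.43 ± 0.11 (adjusted p = 0.0158), but this call was lost whichever array was left out (adjusted p between 0.0512 and 0.11) and with the mean of its probe sets (adjusted p = 0.411). MBD4, a glycosylase that repairs mismatches at CpG sites, rose by 0.32 ± 0.08 (adjusted p = 0.011). The change was 0.22 without DMSO array 1 and 0.28 without treated array 1, and the call was lost in both cases. It was also lost once _x_at and _s_at probe sets were dropped (a change of 0.39, adjusted p = 0.198).

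MAGEA4, a cancer-testis antigen otherwise made in germ cells, rose more than any other gene. Its log2 signal was 2.31 and 3.60 in DMSO and 11.65 and 11.52 with GSK3484862. The DMSO pair was uneven, with only the lower value near the floor of 2.13, the lowest value of the table. Both treated values lay among well measured genes. The change was 8.63 ± 0.33 on the log2 scale, a 396-fold difference (adjusted p = 4.63e-11). The fold is measured from a signal near the floor, so its size depends on where that floor lies.

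The other measured cancer-testis antigens behaved differently. MAGEB2 was already high in DMSO, at 10.93 and 11.13, and rose to 12.03 and 11.98 (0.98 ± 0.21, adjusted p = 0.00507; adjusted p = 0.0538 without DMSO array 1). PRAME, an antigen found in many leukaemias, rose from 10.76 and 10.97 to 11.79 and 11.89 (0.98 ± 0.13, adjusted p = 0.000169). CTAG2 and TKTL1 stayed low, with TKTL1 at the floor on all 4 arrays. Only 5 of the 44 listed antigens were measured, of which 3 rose, against 5.4% of all genes. Among 11 measured germ-cell, meiosis and piRNA genes, only REC8, a meiotic cohesin subunit, passed: it rose from 2.78 and 2.73 to 3.26 and 3.52 (0.63 ± 0.17, adjusted p = 0.0199), and the call was lost without DMSO array 1 (0.0833), without DMSO array 2 (0.0983), without treated array 2 (0.169) and after quantile normalization (0.0567).

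Several genes of mixed function rose from low signals. ZNF595, a zinc finger gene, measured 2.30 and 2.21 in DMSO and 8.24 and 7.90 with GSK3484862 (5.81 ± 0.28, adjusted p = 7.34e-10). DCAF4L1 measured 2.14 and 2.16, then 7.90 and 7.50 (5.55 ± 0.52, adjusted p = 3.58e-06). In both genes every treated value stood more than 5 above every DMSO value. PAX8-AS1, a long noncoding RNA antisense to PAX8 and the only imprinted gene of 15 measured that moved, measured 2.18 and 2.18, then 6.68 and 6.61 (4.47 ± 0.26, adjusted p = 7.39e-09; 2.77 with the mean of its 2 probe sets). NFE4, a partner in fetal globin gene control, measured 2.57 and 2.57, then 6.93 and 6.89 (4.34 ± 0.19, adjusted p = 1.64e-10). NFE4 was the only one of 7 measured erythroid markers to move, and 1 of 2 genes, with MMP9, that rose in all 7 lines.

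HCP5, a long noncoding RNA of the MHC region, measured 2.20 and 2.20 in DMSO and 6.64 and 5.67 in treated cells (3.96 ± 0.19, adjusted p = 4.96e-10). SPARC, a secreted matrix glycoprotein, measured 3.68 and 4.40, then 7.85 and 8.13 (3.95 ± 0.25, adjusted p = 2.42e-08). The SPARC value depended on the probe set: the mean of its 2 probe sets gave 2.21, and the probe set left once _x_at and _s_at types were dropped gave 0.48 (adjusted p = 0.107). PRG2, the major basic protein of eosinophil granules, was the only 1 of 13 measured basophil, mast cell and eosinophil genes that moved. It measured 5.14 and 3.43 in DMSO, an uneven pair, and 7.51 and 7.84 in treated cells (3.39 ± 0.43, adjusted p = 7.68e-05).

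**Figure D1:**
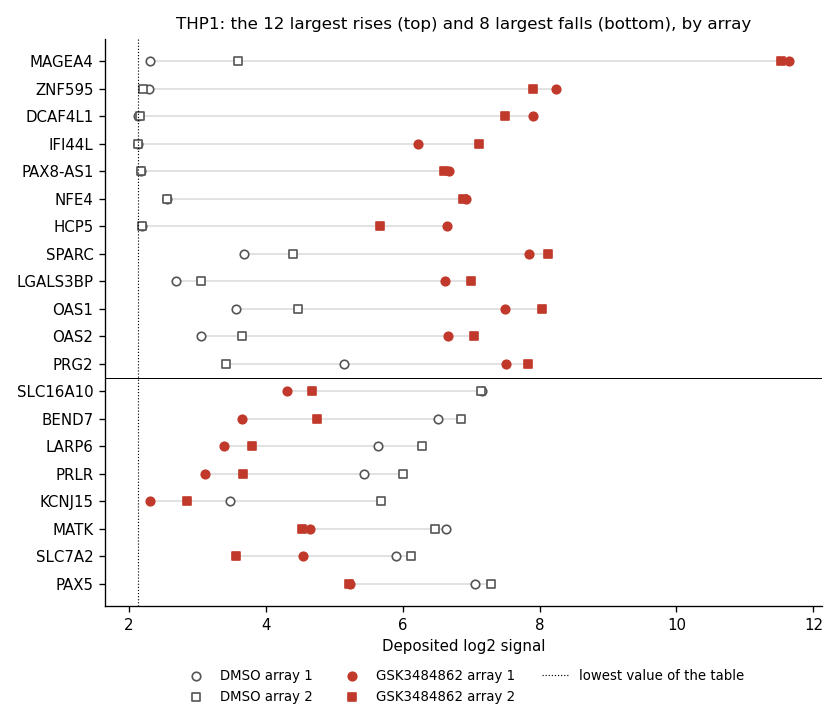
The deposited log2 signal on each of the 4 THP1 arrays (x axis) is plotted for the 12 largest rises and the 8 largest falls (rows), with open symbols for DMSO, filled symbols for GSK3484862 and a dotted line at the lowest value of the table. MAGEA4 runs from 2.31 and 3.60 to 11.65 and 11.52. In each of the 20 genes the treated pair lies on 1 side of the DMSO pair, because only such genes could be chosen. The same held for 1598 of the 1599 called genes and for 7106 of all 11676.

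The genes that started at the floor were examined as a group. Both DMSO arrays stood at 2.13, the lowest value of the table, for 144 genes, and 13 of these had both treated arrays above it. Genes with equal DMSO values above 2.13, such as NFE4 (2.57 on both arrays) and HCP5 (2.20 on both arrays), were not counted. Of the 13, 5 passed the test: IFI44L, IL23R, SLC28A3, ETV7 and SCGB3A1. SLC28A3, a nucleoside transporter, reached 4.14 and 4.68, IL23R, the interleukin-23 receptor, reached 4.94 and 4.14, and SCGB3A1, a secretoglobin, reached 4.24 and 3.93. ETV7, an ETS factor, reached 3.26 and 2.87, and its call was lost without DMSO array 1 (0.0994), DMSO array 2 (0.0903) or treated array 1 (0.172) and after quantile normalization (0.0541). With the mean of its probe sets IL23R changed by 1.49 in place of 2.41. The change of the 8 others was at most 0.53. In the opposite direction, 3 genes had both treated arrays at the floor and both DMSO arrays above it, and 0 passed, with DMSO values no higher than 2.36.

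Falls were smaller, and the genes that fell at least 2-fold had a median DMSO signal of 5.91 against 9.57 over all genes. SLC16A10, a transporter of aromatic amino acids, measured 7.16 and 7.14 in DMSO and 4.31 and 4.68 with GSK3484862 (-2.65 ± 0.10, adjusted p = 4.84e-11; -1.74 with the mean of its 3 probe sets). BEND7, a BEN domain gene, measured 6.51 and 6.85, then 3.65 and 4.75 (-2.48 ± 0.26, adjusted p = 1.3e-05). In both genes the treated pair lay well below the DMSO pair. LARP6, which binds collagen mRNAs, fell by 2.37 ± 0.33 (adjusted p = 0.000208), and PRLR, the prolactin receptor, by 2.32 ± 0.15 (adjusted p = 2.42e-08).

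The next falls lay near 2 on the log2 scale. MATK, a kinase that holds SRC kinases in check, fell from 6.64 and 6.47 to 4.65 and 4.54 (-1.96 ± 0.17, adjusted p = 1.63e-06) and was 1 of 4 genes that fell in all 7 lines. SLC7A2, a transporter of cationic amino acids, fell from 5.91 and 6.12 to 4.55 and 3.57 (-1.95 ± 0.23, adjusted p = 3.33e-05). KCNJ15, a potassium channel, had an uneven DMSO pair of 3.47 and 5.69 against 2.32 and 2.85 in treated cells. Its fall of 2.00 ± 0.51 (adjusted p = 0.0157) was lost without DMSO array 2 (-0.89, adjusted p = 0.228) or treated array 1 (-1.73, adjusted p = 0.119) and came to -3.11 without DMSO array 1 and to -1.03 with the mean of its 2 probe sets.

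PAX5 and EBF1, transcription factors that fix B-cell identity, fell side by side. PAX5 measured 7.05 and 7.28 in DMSO and 5.24 and 5.22 in treated cells (-1.94 ± 0.42, adjusted p = 0.00617). EBF1 measured 6.70 and 6.02, then 4.46 and 4.46 (-1.90 ± 0.37, adjusted p = 0.00264; -1.01 with the mean of its 3 probe sets). Both kept their calls whichever THP1 array was left out, with adjusted p up to 0.0481 for PAX5 and 0.0453 for EBF1. CD79B, a part of the B-cell receptor, went the other way, from 4.73 and 4.73 to 5.74 and 5.60 (0.94 ± 0.15, adjusted p = 0.000708). These were the 3 genes of 9 measured lymphocyte markers that moved, against 13.7% of all genes.

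Interferon response genes formed the largest block of rises among the 30 lists. Of 51 measured members of the list, 30 rose and 0 fell, with a median change of 0.71, against 5.4% of all genes that rose and a median of -0.02. Of the 30, 20 rose at least 2-fold and 9 rose by more than 2 on the log2 scale, and the changes ran from 0.40 (EIF2AK2) to 4.54 (IFI44L). The EIF2AK2 call was lost without DMSO array 1 (0.137), without treated array 2 (0.242) and with the mean of its probe sets (0.232). The 21 members that did not pass changed by between -0.08 and 0.99. The list was written with earlier results of these data known, so its count is a description.

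IFI44L, whose upstream stretch is printed above, lay at the floor on both DMSO arrays and reached 6.22 and 7.12 with GSK3484862 (4.54 ± 0.47, adjusted p = 1.15e-05). LGALS3BP, a secreted glycoprotein, measured 2.69 and 3.06, then 6.62 and 6.99 (3.93 ± 0.45, adjusted p = 2.89e-05). OAS1, an enzyme that makes the 2′-5′ oligoadenylates that start RNA decay, measured 3.57 and 4.47, then 7.49 and 8.03 (3.74 ± 0.26, adjusted p = 1.23e-07). In all 3 genes the treated pair lay at least 3 above the DMSO pair. OAS2, a related enzyme, rose from 3.05 and 3.65 to 6.67 and 7.04 (3.50 ± 0.34, adjusted p = 4.99e-06; 1.78 with the mean of its 3 probe sets).

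Other members are named here for their known roles, chosen after their values were seen. TRIM22, which restricts retroviruses, rose by 3.31, MX1, which traps viral capsids, by 2.02, and ISG15, a ubiquitin-like modifier, by 1.38 from a DMSO level of 10.07 and 10.41. IRF7 and IRF9, which carry the signal to the genes, rose by 1.15 and 1.13, and IRF9 was lost without DMSO array 1 (0.0826) or treated array 2 (0.0597). IFIT1, a sensor of foreign RNA ends, measured 3.60 and 5.26 in DMSO, then 7.20 and 7.52, and IFI44 measured 4.33 and 6.07, then 7.96 and 8.22. In both genes DMSO array 2 stood more than 1.5 above DMSO array 1.

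That offset ran through the list. DMSO array 2 exceeded DMSO array 1 in 46 of the 51 members, with a median difference of 0.25, and treated array 2 exceeded treated array 1 in 44, with a median difference of 0.23. Leaving out DMSO array 1, the lower of the pair, left 18 of the 51 higher with a median of 0.48, and leaving out treated array 2, the higher of its pair, left 19. Without DMSO array 2 there were 31, and without treated array 1 there were 25.

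**Figure D2:**
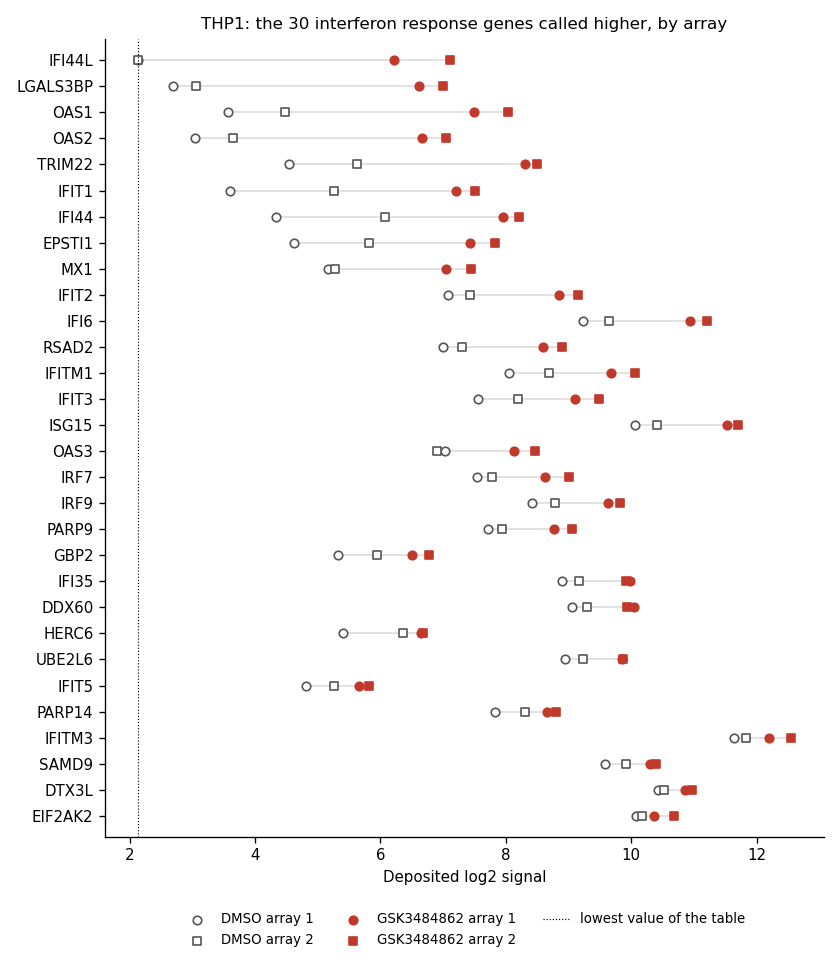
The deposited log2 signal on each THP1 array (x axis) is plotted for the 30 interferon response genes that rose (rows, by size of change), with circles for array 1 and squares for array 2, open for DMSO and filled for GSK3484862. In 28 of the 30 the second DMSO array lies to the right of the first, and in 28 of the 30 the second treated array lies to the right of the first.

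Few of the genes that detect nucleic acids and signal to interferon moved. Of 16 measured nucleic acid sensors and adaptors, 2 rose and 1 fell, with a median of 0.07. IFIH1, which encodes MDA5 and whose upstream stretch is printed above, rose from 8.94 and 9.23 to 9.84 and 9.85 (0.76 ± 0.14, adjusted p = 0.00197) and kept its call whichever array was left out. SAMHD1, which depletes deoxynucleotides, rose by 0.51 ± 0.16 (adjusted p = 0.0395), and RNASEH2A, which removes RNA from DNA, fell by 0.33 ± 0.09 (adjusted p = 0.0269). Both of these calls were lost whichever array was left out, with adjusted p between 0.107 and 0.186 for SAMHD1 and between 0.0601 and 0.172 for RNASEH2A. The SAMHD1 call was also lost once _x_at and _s_at probe sets were dropped (a change of 0.49, adjusted p = 0.233). MAVS, the adaptor of MDA5, changed by 0.00, and no interferon gene itself was among those measured.

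Antigen presentation changed in few genes. HLA-E, a class I molecule read by natural killer cells, rose from 11.82 and 11.95 to 12.68 and 12.53 (0.72 ± 0.09, adjusted p = 5.71e-05). ERAP2, which trims peptides, rose by 0.93 ± 0.23 (adjusted p = 0.0129), and TAPBP, the peptide-loading protein tapasin, fell by 0.30 ± 0.08 (adjusted p = 0.0183). ERAP2 was lost without DMSO array 1 (0.122), treated array 1 (0.0718) or treated array 2 (0.0635) and with the mean of its 4 probe sets (0.116). TAPBP was lost without DMSO array 1 (0.0584), DMSO array 2 (0.12) or treated array 1 (0.165). With the mean of its probe sets TAPBP was lost too (a change of -0.33, adjusted p = 0.0744). HLA-E, ERAP2 and TAPBP were the 3 of 21 measured class I genes that moved. Of 15 class II genes only CTSS, a protease of the invariant chain, moved, by 0.33 ± 0.09 (adjusted p = 0.0209), a call lost without DMSO array 1 (0.267), treated array 1 (0.0509) or treated array 2 (0.148). CIITA, the master regulator of class II genes, changed by 0.10 from a DMSO level of 2.96.

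Upstream sequence differed between the genes that rose and the rest, as a description with no test. Among 25 interferon response genes that rose and have a listed start, 18 (72.0%) held the motif, against 6 of 15 (40.0%) that did not pass and 3.51% of all genes. Outside that list, 3.08% of 130 genes that rose at least 2-fold held it. OAS1 rose without a match in its window, which says only that these letters are not there.

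CpG density showed a second pattern. The median CpG ratio was 0.80 over the 9563 genes, 0.66 over genes that rose and 0.44 over the 145 that rose at least 2-fold, against 0.85 over genes that fell. A ratio under 0.4 was found for 46.9% of those 145 genes and for 9.28% of all genes. Low DMSO signal went with low CpG density: 25.5% of the 1115 genes with a DMSO mean under 5 had such a ratio. The rises also started low, with a median DMSO signal of 5.09 for genes that rose at least 2-fold against 9.57 over all genes, and 95 of those 194 started under 5. Among genes that started under 5, the ratio was under 0.4 in 44.3% of the 70 that rose at least 2-fold and in 24.5% of those that did not rise. Among genes that started at 5 or more, the ratio was under 0.4 in 49.3% of the 75 that rose at least 2-fold and in 6.2% of those that did not rise.

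**Figure D3:**
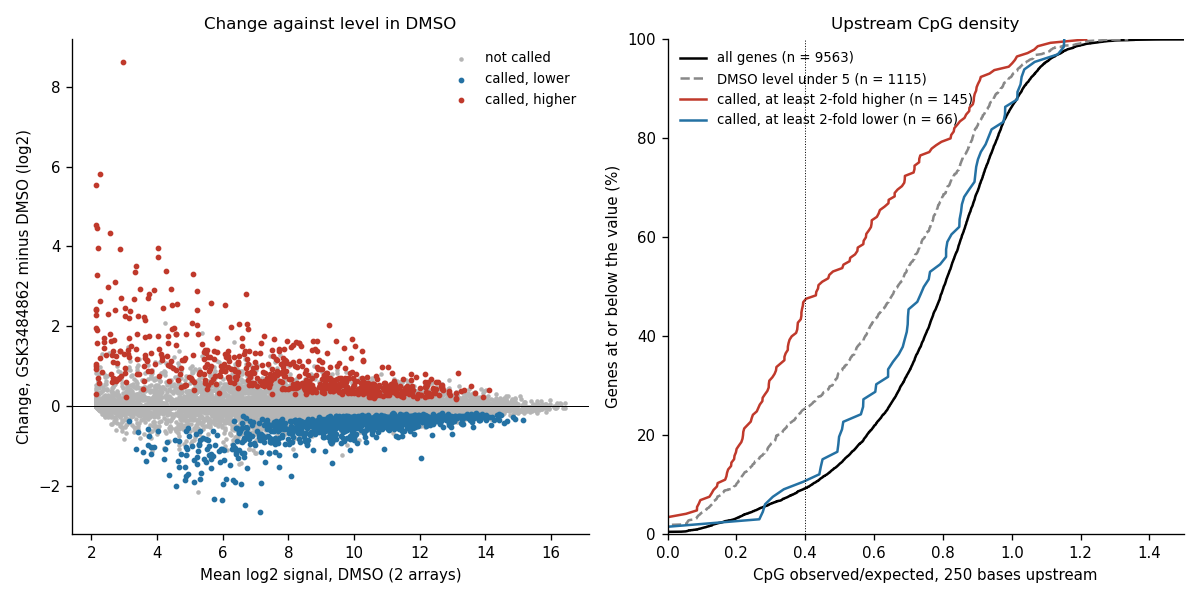
The left panel plots the log2 change in THP1 (y axis) against the mean log2 signal in DMSO (x axis) for 11676 genes, and the right panel plots the cumulative share of genes (y axis, percent) by the CpG observed/expected ratio of the 250 bases upstream (x axis). The largest rises start near the floor, and the curve of genes that rose at least 2-fold crosses the dotted line at 0.4 at 46.9%, against 9.28% for all genes.

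Most monocyte and macrophage markers had higher signals with GSK3484862, but few passed the test. Of 30 measured markers 26 had a change above 0, 5 rose and 1 fell, with a median change of 0.44. Of all genes 5.4% rose and 8.3% fell, with a median of -0.02. CD14, the lipopolysaccharide co-receptor, measured 7.78 and 7.21 in DMSO and 9.26 and 8.52 with GSK3484862 (1.39 ± 0.42, adjusted p = 0.0349). CD36, a scavenger receptor, measured 10.29 and 10.24, then 11.53 and 11.32 (1.16 ± 0.31, adjusted p = 0.0207). In both genes the treated pair lay above the DMSO pair, yet CD14 was lost without DMSO array 1 (0.0646), DMSO array 2 (0.219) or treated array 1 (0.254), and CD36 whichever array was left out (0.0653 to 0.125). The CD36 call was also lost once _x_at and _s_at probe sets were dropped (a change of 1.33, adjusted p = 0.0695). CSF1R, the receptor of macrophage colony-stimulating factor, rose by 1.08, APOE by 0.94 and TYROBP, an adaptor of activating receptors, by 0.82. CSF1R was lost whichever array was left out (0.0659 to 0.11), as was TYROBP (0.0847 to 0.2). MARCO, a scavenger receptor of macrophages, fell from 3.21 and 3.90 to 2.56 and 2.25 (-1.15 ± 0.21, adjusted p = 0.00167), close to the floor. With 1 array left out the number of markers that rose was between 1 and 3: 2 without DMSO array 1, 1 without DMSO array 2, 1 without treated array 1 and 3 without treated array 2.

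Few granule and lysosome genes passed the test. FPR2, a receptor of formylated peptides, rose by 1.34 ± 0.25 (adjusted p = 0.00225; 0.82 without DMSO array 2). MMP9, gelatinase B, rose from 7.02 and 6.82 to 7.96 and 7.81 (0.96 ± 0.23, adjusted p = 0.00963) and was lost without DMSO array 2 (0.0761) or treated array 1 (0.0739). CEBPE, a factor of granule formation, rose by 0.77 ± 0.22 (adjusted p = 0.0284; 0.0602 to 0.183 with 1 array left out, whichever it was). These were the 3 of 21 neutrophil genes that moved, against 5.4% of all genes that rose.

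Of 30 lysosome genes 5 rose and 0 fell, with a median of 0.15, against 5.4% of all genes that rose. The count was 2 without DMSO array 1, 4 without DMSO array 2, 3 without treated array 1 and 2 without treated array 2. ASAH1, acid ceramidase, rose from 12.56 and 12.44 to 13.15 and 13.05 (0.60 ± 0.08, adjusted p = 0.00013). CTSK, a cathepsin that degrades matrix, rose by 1.31 ± 0.30 (adjusted p = 0.00795), lost without DMSO array 1 (0.0803) or treated array 2 (0.102). CTSD, an aspartic protease, rose by 0.70 ± 0.15 (adjusted p = 0.00607), lost without DMSO array 2 (0.0576) or treated array 1 (0.0523). The 6 measured subunits of the phagocyte NADPH oxidase had 0 calls at the adjusted threshold with limma, and CYBB, its catalytic subunit, changed by 1.27 (adjusted p = 0.0543).

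Other lineage lists had few calls each, but some shares lay above that of all genes. Of 8 measured megakaryocyte and platelet genes 3 rose, as did 3 of 14 epithelial genes, against 5.4% of all genes. NFE2, a factor of platelet formation, rose from 7.29 and 7.74 to 8.71 and 8.83 (1.26 ± 0.19, adjusted p = 0.000441). The other platelet genes that rose, PTGS1 (0.46, cyclooxygenase-1) and FLI1 (0.43, an ETS factor), were lost with most arrays left out: PTGS1 without DMSO array 1 (0.335), treated array 1 (0.0555) or treated array 2 (0.218), and FLI1 in each case (0.102 to 0.221). Among 14 measured epithelial genes, JUP, plakoglobin, rose from 2.98 and 3.81 to 5.35 and 5.05 (1.81 ± 0.26, adjusted p = 0.000293). S100P, a calcium-binding protein, rose from 8.58 and 8.95 to 10.45 and 10.35 (1.64 ± 0.28, adjusted p = 0.00102), and SPINT1, a protease inhibitor, by 1.11 ± 0.18 (adjusted p = 0.00064). All 3 kept their calls with any 1 array left out. Of 14 stem and HOX genes only CDK6, a kinase that drives entry into S phase, moved: it fell by 0.36 ± 0.08 (adjusted p = 0.00621), lost without DMSO array 2 (0.0523) or treated array 1 (0.104).

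DNA replication genes had lower signals in small steps, and some passed the test. Of 49 measured S-phase genes 19 fell and 0 rose, with a median change of -0.25, against 8.3% of all genes that fell. All 49 had a change below 0. CCNE1, cyclin E1, measured 10.56 and 10.56 in DMSO and 10.00 and 9.87 with GSK3484862 (-0.62 ± 0.08, adjusted p = 9.93e-05). GINS2, a subunit of the replicative helicase, fell from 11.66 and 11.66 to 11.20 and 11.10 (-0.51 ± 0.07, adjusted p = 0.000298; adjusted p = 0.317 for the probe set left once _x_at and _s_at types were dropped). In both genes the DMSO duplicates were equal to 2 decimals and the treated pair lay below them. MCM10, a replication initiation factor, fell by 0.63 ± 0.15 (adjusted p = 0.0112). The change was -0.66 without DMSO array 1, -0.60 without DMSO array 2 and -0.54 without treated array 2, and the call was lost in each case. It was also lost once _x_at and _s_at types were dropped (a change of -0.40, adjusted p = 0.0908). The number of S-phase genes that fell was 12 without DMSO array 1, 7 without DMSO array 2, 10 without treated array 1 and 8 without treated array 2, while the median stayed between -0.26 and -0.20.

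Of 51 mitosis genes 3 fell and 0 rose, with a median of -0.05. UBE2S, an enzyme of the anaphase-promoting complex, fell by 0.28, BIRC5, survivin, by 0.26 and KIF4A, a mitotic kinesin, by 0.26. The BIRC5 call was lost with the mean of its probe sets (a change of -0.25, adjusted p = 0.129). It was also lost once _x_at and _s_at types were dropped (-0.35, adjusted p = 0.139). BIRC5 and KIF4A were lost whichever array was left out (0.0943 to 0.21 and 0.152 to 0.162), and UBE2S without DMSO array 1 (0.0812) or treated array 2 (0.115).

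Most genes of growth also had lower signals, and some passed the test. Of 38 measured MYC target and ribosome biogenesis genes 16 fell and 0 rose, with a median of -0.28, against 8.3% of all genes that fell. Of the 38, 37 had a change below 0. SRM, spermidine synthase, fell from 13.003 and 12.95 to 12.35 and 12.22 (-0.69 ± 0.09, adjusted p = 0.0001). CAD, which starts pyrimidine synthesis, fell from 10.44 and 10.39 to 9.91 and 9.88 (-0.52 ± 0.09, adjusted p = 0.00167). MYC itself measured 12.96 and 12.81, then 12.39 and 12.44 (-0.47, adjusted p = 0.00652; 0.0801 without DMSO array 1 and 0.0523 without treated array 1). In these 3 genes the pairs did not overlap, as in 1598 of the 1599 called genes and 7106 of all 11676. TSR1, a ribosome assembly factor, fell by 0.52 ± 0.07 (adjusted p = 0.000102), but the mean of its 4 probe sets gave -0.21 (adjusted p = 0.202). With 1 array left out 8 or 9 of the 38 fell: 8 without DMSO array 1, 8 without DMSO array 2, 9 without treated array 1 and 8 without treated array 2, with the median between -0.28 and -0.24.

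Of 13 measured genes often used for normalization 2 fell, with a median of -0.05: HPRT1 from 13.28 and 13.21 to 12.85 and 12.77 (-0.43 ± 0.05, adjusted p = 6.05e-05) and TBP by 0.26 ± 0.08 (adjusted p = 0.0414). TBP was lost whichever array was left out (0.127 to 0.169) and after quantile normalization (0.0573) or median centring (0.0543).

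Metabolic and stress lists held few calls each. Of 19 cholesterol synthesis genes 4 fell and 0 rose, with a median of -0.20, against 8.3% of all genes that fell. Of the 19, 18 had a change below 0 and 1 above. MVK, mevalonate kinase, fell from 8.60 and 8.55 to 7.66 and 7.54 (-0.98 ± 0.22, adjusted p = 0.00775; 0.0547 without DMSO array 1 and 0.0598 without treated array 2). LSS, lanosterol synthase, fell by 0.69 ± 0.14 (adjusted p = 0.00443; 0.0602 without DMSO array 2 and 0.0579 without treated array 1), and MVD, which makes isopentenyl diphosphate, by 0.64 ± 0.17 (adjusted p = 0.0224; 0.0582 to 0.146 with any 1 array left out). The number that fell was 3 without DMSO array 1 and 1 without each of the others.

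HK2, hexokinase 2, was the 1 gene of 36 in hypoxia and glycolysis that moved, from 9.38 and 9.15 to 8.64 and 8.49 (-0.70 ± 0.11, adjusted p = 0.000565). Among 35 unfolded protein and ATF4 response genes, CHAC1, which breaks down glutathione, fell from 4.31 and 4.13 to 3.03 and 2.76 (-1.33 ± 0.26, adjusted p = 0.00319). PSAT1, an enzyme of serine synthesis, fell by 0.54 ± 0.13 (adjusted p = 0.0102; 0.0675 without DMSO array 2, 0.0528 without treated array 1, 0.0614 without treated array 2), and NUPR1, a stress regulator, rose by 0.61 ± 0.15 (adjusted p = 0.0142; 0.149 without DMSO array 1, 0.212 without treated array 1). The list as a whole had 1 rise, 4 falls and a median of 0.01.

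Genes of growth arrest and death did not move as a group. Of 29 p53 target genes 3 rose and 3 fell, with a median of 0.00. ZMAT3, an RNA-binding splicing regulator, rose from 7.85 and 7.86 to 8.64 and 8.64 (0.79 ± 0.11, adjusted p = 0.000264). TP53I3, an oxidoreductase, rose by 1.05 ± 0.30 (adjusted p = 0.0267; 0.215 without DMSO array 2, 0.203 without treated array 1). FAS, the death receptor, measured 2.91 and 2.90, then 4.21 and 3.13 (0.76 ± 0.23, adjusted p = 0.0356), a rise carried by treated array 1: without it the change was 0.22 (adjusted p = 0.497), and FAS was also lost without DMSO array 1 (0.139) or DMSO array 2 (0.128) and came to 1.30 without treated array 2. The mean of its 4 probe sets gave 0.31 (adjusted p = 0.289), and 2 of the 4 shared the direction.

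Of 27 BCL2 family and death receptor genes 4 rose and 1 fell, against 5.4% and 8.3% of all genes. BCL2A1, a survival protein, measured 2.58 and 2.94, then 4.42 and 3.62 (1.26 ± 0.31, adjusted p = 0.0119; 0.111 without DMSO array 1, 0.16 without treated array 1), and XIAP, a caspase inhibitor, rose by 0.45 ± 0.12 (adjusted p = 0.0215; 0.0663 to 0.132 with any 1 array left out). With the mean of its probe sets XIAP was lost too (a change of 0.20, adjusted p = 0.193). Of 23 measured tumour suppressors known to be silenced by methylation in leukaemia, 3 rose and 0 fell. Their median was 0.03, and 5.4% of all genes rose. PTPN6, the phosphatase SHP-1, rose from 11.18 and 11.23 to 11.62 and 11.59 (0.40 ± 0.08, adjusted p = 0.00226). LATS2, a Hippo kinase, rose by 0.37 (adjusted p = 0.0223; 0.187 without DMSO array 1, 0.182 without treated array 2), and RASSF1 by 0.35 (adjusted p = 0.0137; 0.0529 to 0.0919 with any 1 array left out). With the mean of its probe sets LATS2 was lost too (a change of 0.28, adjusted p = 0.175). DLC1 and PCDH17 lay at the floor on all 4 arrays.

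Some secreted factors and matrix genes rose. Of 29 cytokines and chemokines 6 rose and 1 fell, with a median of 0.19, against 5.4% of all genes that rose and 8.3% that fell. IL16, a chemoattractant of CD4+ cells, rose from 5.85 and 6.36 to 7.18 and 7.49 (1.23 ± 0.16, adjusted p = 0.000117; 0.70 with the mean of its 2 probe sets). CXCL8, interleukin-8, measured 6.83 and 5.86, then 8.05 and 7.08 (1.22 ± 0.32, adjusted p = 0.0175; 0.22 without DMSO array 2, 0.226 without treated array 1). CCL20, a chemokine of dendritic cells, measured 3.13 and 4.26, then 5.28 and 4.41 (1.16 ± 0.34, adjusted p = 0.0327; 0.375 without DMSO array 1, 0.307 without treated array 1). In CCL20 the upper DMSO value lay just under the lower treated value. CCL5, a chemokine that attracts T cells, fell from 9.97 and 10.01 to 9.17 and 9.22 (-0.79, adjusted p = 0.00224), the only gene of the list that fell.

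Of 36 matrix, protease and serpin genes 9 rose and 2 fell, with a median of 0.19, against 5.4% of all genes that rose and 8.3% that fell. The rises numbered 3 to 7 with 1 array left out, the fewest without treated array 1. SERPINA1, alpha-1 antitrypsin, rose from 6.49 and 6.44 to 7.51 and 7.60 (1.09 ± 0.23, adjusted p = 0.00453; 1.73 with the mean of its 2 probe sets). TIMP2, an inhibitor of matrix proteases, rose by 0.67 and its relative TIMP3 fell by 0.86, lost without DMSO array 2 (0.124) or treated array 1 (0.0797). LAMB1, a laminin chain, measured 4.50 and 5.94, then 3.59 and 4.28 (-1.28 ± 0.38, adjusted p = 0.0322), and the call was lost without DMSO array 2 (-0.56, adjusted p = 0.394) or treated array 1 (-0.94, adjusted p = 0.244) and came to -2.001 without DMSO array 1.

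**Figure D4:**
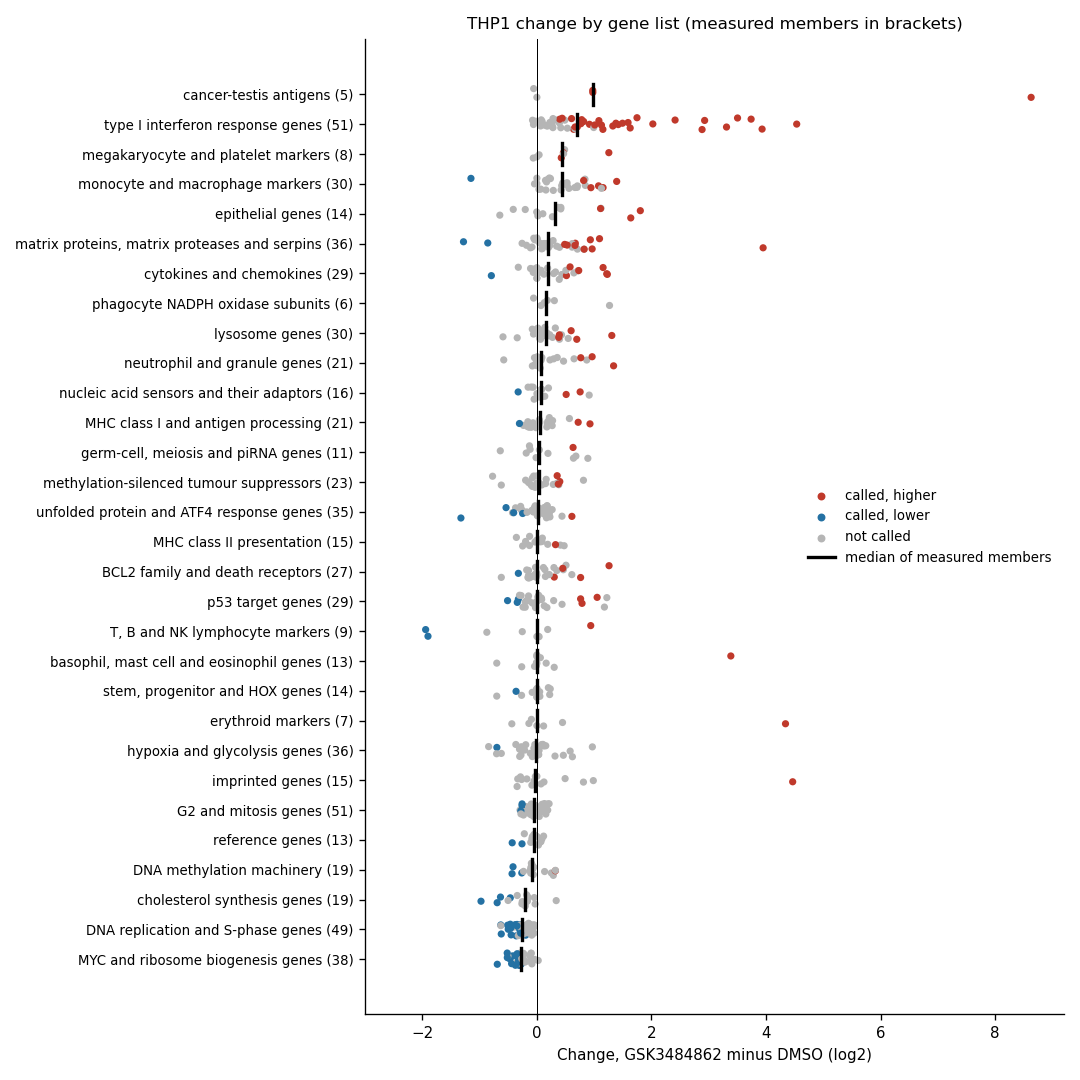
Each point is the log2 change in THP1 (x axis) of a measured member of 1 of 30 gene lists (rows, ordered by median), coloured where it passed the test, with a bar at the list's median. Interferon response genes spread to the right with a median of 0.71, and S-phase and ribosome biogenesis genes sit in a narrow band to the left with medians of -0.25 and -0.28.

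The THP1 changes were set against the other 6 lines by testing the THP1 change minus the mean of their changes. The difference passed for 435 genes (3.73%), 166 with the THP1 change above the others and 269 below. Of the 630 rises in THP1, 497 were also called higher in at least 1 other line, and of the 969 falls 783 were also called lower in at least 1. Of all 11676 genes, 3652 (31.3%) were called higher in at least 1 other line and 4165 (35.7%) lower. A call missing elsewhere is no difference in itself, so only the tested difference is used below.

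MAGEA4 gave the largest difference, 6.37 ± 0.35 (adjusted p = 6.22e-09). Its change was 8.63 in THP1, 8.29 in SKM1, 4.37 in SKNO1 and 0.89 in MOLM13, and 0.00 in GDM1, NOMO1 and SHI1. A change of 0.00 means equal mean signals in both treatments of those lines, whose levels are not given here. MAGEB2 differed the other way, by -3.30 ± 0.22 (adjusted p = 7.96e-08), with rises of 2.90 to 7.39 in 5 other lines against 0.98 in THP1, where it was already high. ZNF595 rose in 5 of the 6 other lines and did not pass (0.32 ± 0.31, adjusted p = 0.676).

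PAX8-AS1 (4.19 ± 0.28), SPARC (4.13 ± 0.27), OAS1 (3.66 ± 0.28), HCP5 (3.65 ± 0.20) and IFI44L (3.47 ± 0.50) followed, each with an adjusted p of at most 0.000589. SPARC changed by between -0.76 and 0.29 in the other lines, and PAX8-AS1 by between 0.02 and 0.74. With the mean of their probe sets the difference fell to 2.59 for PAX8-AS1 and 2.57 for SPARC, and to 1.00 for SPARC and 2.17 for OAS1 once _x_at and _s_at types were dropped.

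Among interferon response genes, the difference passed, with the THP1 change above the others, for 8 of the 51, against 166 of all 11676 genes. The mean hides 1 line: GDM1 had 45 of the 51 called higher and a list median of 1.63, above the 0.71 of THP1. In the other lines the medians were 0.46 in SKM1, 0.05 in MOLM13, 0.03 in SKNO1, 0.03 in NOMO1 and -0.00 in SHI1. IFI44L rose by 6.09 in GDM1 and by at most 0.33 elsewhere, and OAS1 rose by 2.54 in GDM1 and changed by -1.75 in SHI1.

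The falls with the largest differences were BEND7 (-2.41 ± 0.28), PRLR (-2.15 ± 0.16), SLC16A10 (-2.13 ± 0.11) and KCNJ15 (-2.37 ± 0.55), with adjusted p of at most 0.0208. BEND7 changed by between -0.26 and 0.00 in the other lines. PRLR fell by 1.05 in NOMO1 and changed by 0.00 in the other 5. BEND7 changed by 0.00 in GDM1, MOLM13, SKNO1 and SHI1. KCNJ15 and EBF1 changed by 0.00 in every other line but NOMO1 (2.25 and -1.11). A change of 0.00 means equal mean signals in both treatments. Where such signals lie at the floor, no fall can be seen, but the levels in the other lines are not given here. These differences may therefore also depend on the level of each gene in DMSO. The KCNJ15 difference was lost without DMSO array 2 (-1.27, adjusted p = 0.186) or treated array 1 (-2.11, adjusted p = 0.148). PAX5 and EBF1 differed by -2.06 ± 0.46 (adjusted p = 0.0159) and -1.72 ± 0.39 (adjusted p = 0.0196). PAX5 was lost whichever array was left out (0.0608 to 0.0913), and EBF1 without DMSO array 1 (0.175), treated array 1 (0.0906) or treated array 2 (0.0833).

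**Figure D5:**
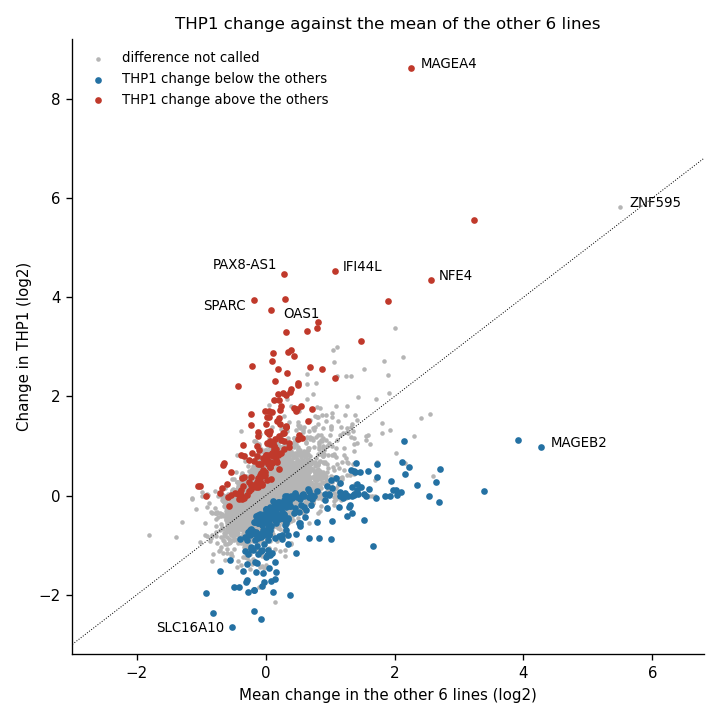
The log2 change in THP1 (y axis) is plotted against the mean log2 change of the other 6 lines (x axis) for 11676 genes, with the 435 genes whose difference passed in colour and a dotted line where the values are equal. MAGEA4, PAX8-AS1, SPARC and OAS1 stand above the line, MAGEB2 far below it, and ZNF595 close to it.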

How the data were processed

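Expression was read on Affymetrix GeneChip arrays (Human U133 Plus 2.0). The authors deposited 1 table of log2 values (27306 probe sets, 28 arrays); how they corrected, normalized and filtered it is not given in the sources used here, and limma is named without a version in the submitters' processing notes. Array medians lay between 8.33 and 8.51, and every array shared a lowest value of 2.13, a floor where values have no order. On the THP1 arrays between 361 and 405 probe sets stood there. Values were used as deposited. Precision is limited by the 2 arrays per group.

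Of the probe sets, 22580 had 1 gene symbol (platform annotation), 1098 had several and 3628 had none listed; the last 2 kinds were left out. With limma 3.58.1 in R 4.3.3, all 14 groups were fitted in 1 model (14 residual degrees of freedom; the labels name no model). The contrasts were THP1 GSK3484862 minus DMSO and that change minus the mean change of the other 6 lines. P-values were moderated, two-sided and adjusted over 11676 genes by the Benjamini-Hochberg method, and "called" means an adjusted p under 0.05. The fit was tested on simulated data. "Lost" means an adjusted p of 0.05 or more under the alternative given; a bare value in brackets after "lost" is that adjusted p.

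The members and all 30 gene lists were chosen with earlier results of these data known. Genes named were the 12 largest rises and 8 largest falls without overlap between groups, up to 3 called members per list by size of change, the 5 largest differences from the other lines each way, and DNMT1, DNMT3A, DNMT3B and UHRF1. Others were chosen after their values were seen. RefSeq upstream windows (GRCh38.p14) matched 9563 genes by gene identifier. CpG values were averaged over several starts of a gene. A gene counted as holding the motif if the window of any of its starts did, so genes with more starts had more chances. CpG and motif counts are descriptions, and a CpG ratio is CpG count times length over C count times G count. Alternatives covered normalization, filters, probe set choice, the variance model, the replicate block, the lines pooled and each array left out. No scan dates were used, so batches were not tested.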

Additional observations from a re-analysis of the deposited data

Results flagged for a closer look

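For 31 of the named genes the change in THP1 differed from the mean change of the other 6 lines in limma's test of that difference, with all 11676 genes adjusted together. The difference, THP1 minus the others on the log2 scale, was above 0 for MAGEA4 (6.37), PAX8-AS1 (4.19), SPARC (4.13), OAS1 (3.66), HCP5 (3.65), IFI44L (3.47), OAS2 (2.69), DCAF4L1 (2.32), LGALS3BP (2.04), NFE4 (1.78), JUP (1.25), ERAP2 (1.02), NFE2 (0.99), CD79B (0.78) and IL16 (0.72). It was below 0 for MAGEB2 (-3.30), BEND7 (-2.41), KCNJ15 (-2.37), PRLR (-2.15), SLC16A10 (-2.13), PAX5 (-2.06), EBF1 (-1.72), SLC7A2 (-1.69), MARCO (-1.62), LARP6 (-1.55), SERPINA1 (-1.05), MATK (-1.04), SAMHD1 (-0.82), HK2 (-0.45), TAPBP (-0.40) and UBE2S (-0.28).

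MAGEB2, SAMHD1 and SERPINA1 rose in THP1 by less than the mean of the other lines but not by less than each line. The SAMHD1 value was 0.51 in THP1, 5.79 in GDM1, 0.36 in SKNO1, -0.23 in NOMO1 and -0.03 in SHI1. The SERPINA1 value was 1.09 in THP1, 0.13 in GDM1 and 0.42 in SKNO1, and that of MAGEB2 was 0.98 in THP1 and 0.37 in GDM1. MARCO fell in THP1 and rose by 2.54 in MOLM13.

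With 1 THP1 array left out the difference was lost in every case for DCAF4L1 (adjusted p 0.0673 to 0.155), LGALS3BP (0.0627 to 0.148), PAX5 (0.0608 to 0.0913), ERAP2 (0.0505 to 0.183), UBE2S (0.0536 to 0.236) and SERPINA1 (0.0725 to 0.113). Leaving out DMSO array 1 ended it for NFE2 (0.128), EBF1 (0.175), CD79B (0.062), JUP (0.201), IL16 (0.278) and HK2 (0.297). Leaving out DMSO array 2 ended it for LARP6 (0.172), KCNJ15 (0.186), SAMHD1 (0.0615), TAPBP (0.0913) and CD79B (0.0592). Leaving out treated array 1 ended it for LARP6 (0.155), KCNJ15 (0.148), SAMHD1 (0.0718), TAPBP (0.13), EBF1 (0.0906), CD79B (0.0899), JUP (0.14) and HK2 (0.0711). Leaving out treated array 2 ended it for NFE2 (0.0734), EBF1 (0.0833), IL16 (0.212) and HK2 (0.239). The mean of all probe sets ended it for SAMHD1 (0.794), ERAP2 (0.0656), TAPBP (0.0949), IL16 (0.779), SERPINA1 (0.172) and HK2 (0.0519).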

How the results depend on the processing

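No called named gene changed direction under the alternatives run, and no list reversed the direction in which it had more calls. Without DMSO array 2, however, rises outnumbered falls. Without that array some list medians near 0 also changed sign. That of imprinted genes went from -0.03 to 0.06, and that of genes often used for normalization from -0.05 to 0.01. The number of genes called in THP1, 1599 as reported (630 higher, 969 lower), lay between 1444 and 1761 under quantile normalization, median centring, a filter on all groups, the mean of all probe sets and either variant of the variance model. With array weights it was 2592 (1017 higher, 1575 lower, 892 differences from the other lines), at an adjusted p under 0.01 it was 717 (305, 412 and 185, with 51 of 82 named genes), and with at least 2-fold changes it was 273 (194, 79 and 178). On the 4 THP1 arrays alone 2 genes passed, both higher and 0 lower, both among the named genes, and 2 of the 28 lists with more calls in 1 direction than the other kept a call. Leaving out the SKM1 arrays gave 2095 calls and 705 differences, against 435. Keeping genes above the THP1 median gave 356 rises, 34 named genes and 142 differences, and dropping _x_at and _s_at probe sets gave 625 falls and 51 named genes; fewer genes are tested in both. With 1 THP1 array left out there were 747 to 903 calls, 281 to 464 rises, 439 to 490 falls, 51 to 60 named genes and 245 to 293 differences, from fewer arrays. With the replicate block 1641 genes passed, and of the 82 named genes 80 did: FLI1 (adjusted p = 0.0525), KIF4A (0.0512) and the HK2 difference (0.0517) were lost. The labels used do not say that a number marks a shared culture or day, and same-numbered THP1 arrays correlated at 0.086 in their deviations (-0.16 to 0.39 over 91 pairs of groups), so the block was kept as an alternative. In the interferon response genes array 2 lay above array 1 in 46 of 51 for DMSO and 44 of 51 for treated cells. Of the 82 named genes, 44 kept their call with any 1 array left out. Other causes were not tested. Genes near the floor have changes whose size the floor limits.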
